A study of Mus musculus and Homo sapiens with 90 samples.

Results

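Messenger RNA levels of 10 genes of blood clotting and its control were followed in HepG2 cells exposed to metabolites from a microbial community. The genes were listed by name, with earlier results of these data known, and matched by Ensembl gene identifier: F2 (ENSG00000180210), F5 (ENSG00000198734), F7 (ENSG00000057593), F10 (ENSG00000126218), F11 (ENSG00000088926), F12 (ENSG00000131187), PLG (ENSG00000122194), PROC (ENSG00000115718), SERPINC1 (ENSG00000117601) and KNG1 (ENSG00000113889). They are 10 of 58230 Ensembl entries in the count tables, and all 10 were among the 15023 genes with enough reads to be tested. HepG2 is an established human liver cancer line, and every library came from cells labelled p53-WT. Cells were not grown with the microbes: metabolites collected from the community were added to the culture medium at 1:32 and left for 48 h.

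There were 4 groups of 2 libraries each. The medium libraries came from cells given a medium control for 48 h. The metabolite libraries came from cells given metabolites of a community that had itself received only solvent. The peptide libraries came from cells given metabolites of a community treated with the antimicrobial cyclic peptide wLwKhShK, and the diastereomer libraries from cells given metabolites of a community treated with the control cyclic peptide WlWkHsHK. The names of both peptides spell the same 8 residues in the same order with the letter case exchanged at all but the last, a notation in which lower case commonly marks D residues; the labels do not spell this out. Whether peptide was carried over into the metabolites is not given in the labels.

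The liver makes most clotting proteins of the blood and secretes them as inactive precursors. In the contact pathway, factor XII (F12) activates factor XI (F11), with high molecular weight kininogen (KNG1) as the cofactor that carries factor XI to surfaces and from which bradykinin is released. In the extrinsic pathway, factor VII (F7) binds tissue factor and activates factor X (F10), which with its cofactor factor V (F5) turns prothrombin (F2) into thrombin. Protein C (PROC), once activated, inactivates the activated cofactors V and VIII, antithrombin (SERPINC1) blocks thrombin and activated factor X, and plasminogen (PLG) is the precursor of plasmin, which dissolves fibrin. Factors II, VII, X and protein C are made functional by vitamin K-dependent carboxylation, which acts on the protein and is not seen in RNA.

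Total expected counts ran from 17019364 to 25594588 per library. The 10 genes together held 0.0688% to 0.0869% of them, more in both medium libraries than in any other library. F2 and F5 made up most of this share (9462 and 3081 of 17507 counts in medium replicate 1). KNG1, F10, F12 and PLG had their lowest group mean in medium. Levels are given as CPM, the counts scaled to a common library size. They are not divided by transcript length, so they are compared between libraries and not between genes. Replicate libraries differed by more than counting alone gives, and the chi-square of their counts over its degrees of freedom was 3.87 to 13.3. The labels do not say whether replicates were separate cultures, so the p-values measure only the spread between these samples, which may be technical. In RNA from whole cultures, fewer cells expressing a gene and less RNA per cell cannot be told apart.

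**Figure D1:**
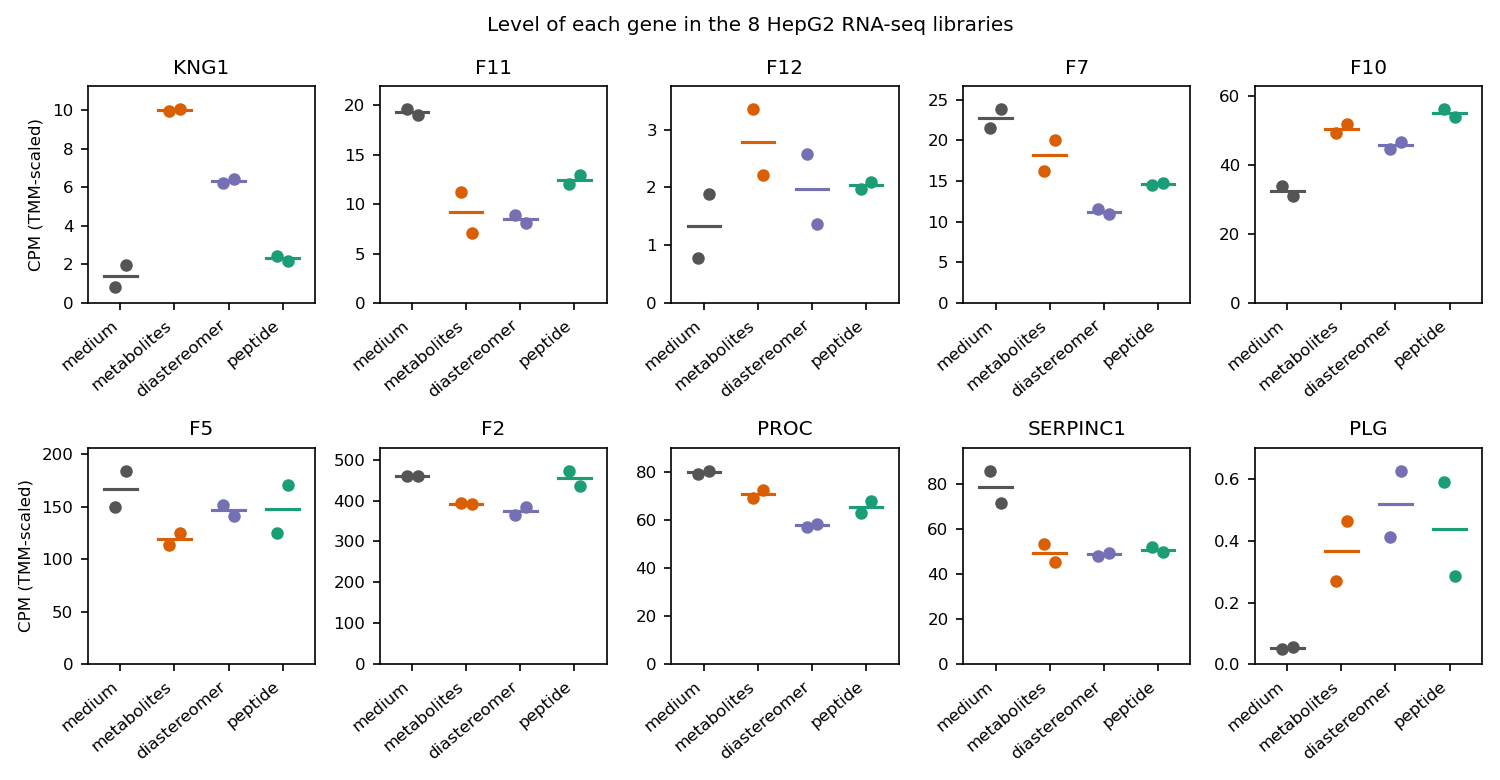
Level of each of the 10 genes in each of the 8 libraries, in CPM on a linear axis from 0 scaled to each gene, with 1 panel per gene and 2 points (the libraries) per group; the short line is the group mean. KNG1 went from 0.828 and 1.95 CPM in medium to 9.95 and 10.05 CPM with metabolites of the solvent-treated community.

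In the contact pathway, KNG1 stood at 0.828 and 1.95 CPM in medium, at 9.95 and 10.05 CPM in the metabolite libraries, at 6.23 and 6.45 CPM in the diastereomer libraries and at 2.44 and 2.19 CPM in the peptide libraries. The 4 groups did not overlap for KNG1, with medium lowest, then peptide, diastereomer and metabolites. How many of all tested genes separate their groups in this way was not counted. Overlap is therefore given here and below as description only. The medium libraries disagreed most, with 17 and 35 counts against 184 and 173 counts in the metabolite libraries.

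F11 ran the other way and was highest in medium, at 19.6 and 19.0 CPM. It was at 11.2 and 7.09 CPM in the metabolite libraries, at 8.85 and 8.04 CPM in the diastereomer libraries and at 11.98 and 12.97 CPM in the peptide libraries. Medium stood above the rest and the peptide libraries above the remaining 4, while the diastereomer values lay between the 2 metabolite values. F11 had fractional expected counts in 8 of 8 libraries, so RSEM split some of its reads with another entry, and its levels are uncertain to that extent. The prekallikrein gene KLKB1 is its close relative, but which entry took the reads was not tested.

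F12 was scarce throughout. It stood at 0.780 and 1.89 CPM in medium (16 and 34 counts), 3.35 and 2.21 CPM in the metabolite libraries (62 and 38 counts), 2.57 and 1.37 CPM in the diastereomer libraries (50 and 24 counts) and 1.97 and 2.10 CPM in the peptide libraries (50 and 44 counts). The metabolite libraries stood above the medium libraries, but the diastereomer libraries overlapped medium, peptide and metabolite values.

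F7, the protease that starts the extrinsic pathway, was highest in medium, at 21.6 and 23.8 CPM. It was at 16.3 and 20.0 CPM in the metabolite libraries, 14.5 and 14.7 CPM in the peptide libraries and 11.5 and 10.9 CPM in the diastereomer libraries. None of the 4 groups overlapped, and the diastereomer group was the lowest.

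In the common pathway, F10 was lowest in medium, at 33.7 and 31.03 CPM. It was at 49.1 and 51.8 CPM in the metabolite libraries, 44.7 and 46.7 CPM in the diastereomer libraries and 56.0 and 53.8 CPM in the peptide libraries. Its groups did not overlap either, and the peptide group was the highest.

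F5, the cofactor of activated factor X, was at 150.1 and 184.2 CPM in medium, 113.3 and 125.3 CPM in the metabolite libraries, 151.8 and 141.6 CPM in the diastereomer libraries and 124.6 and 170.9 CPM in the peptide libraries. The medium replicates spread widely (mean 167 ± 24.1 CPM, SD, n = 2) and so did the peptide replicates (148 ± 32.8 CPM, SD, n = 2), which overlapped all 3 other groups. F2, the thrombin precursor, was at 461.0 and 459.6 CPM in medium, 394.3 and 390.5 CPM in the metabolite libraries, 364.9 and 383.7 CPM in the diastereomer libraries and 472.6 and 436.3 CPM in the peptide libraries. Medium and peptide overlapped for F2, and both stood above the diastereomer and metabolite libraries.

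Both anticoagulant genes were highest in medium. PROC was at 79.5 and 80.7 CPM in medium, 69.3 and 72.6 CPM in the metabolite libraries, 63.2 and 68.3 CPM in the peptide libraries and 57.3 and 58.7 CPM in the diastereomer libraries, with no overlap between groups. SERPINC1 was at 85.9 and 71.6 CPM in medium, 53.3 and 45.5 CPM in the metabolite libraries, 48.1 and 49.5 CPM in the diastereomer libraries and 52.1 and 49.6 CPM in the peptide libraries. The 3 groups given metabolites lay close together for SERPINC1, all below medium.

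PLG had the fewest counts, with 1 and 1 counts in medium, 5 and 8 in the metabolite libraries, 8 and 11 in the diastereomer libraries and 15 and 6 in the peptide libraries. The medium libraries were the lowest, and the other 3 groups overlapped. PLG passed the low-count filter only through the groups in which it was higher, and it had a fractional value in 1 library. F10 had one in 2 libraries.

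The comparison of metabolites with medium set cells given metabolites of the solvent-treated community beside cells given the medium control. Whether solvent reached the medium control is not given in the labels. Anything else carried over from the community culture, such as solvent, cannot be told apart from the metabolites here. Against medium, PLG is given by its counts only. It passed the filter only through groups where it is high, which favours a difference from medium. Of the 9 other genes, 3 rose (KNG1, F12 and F10), 5 fell (F11, F7, F2, PROC and SERPINC1) and F5 did not pass the edgeR test at an adjusted p of 0.05. Of all tested genes, 27.5% rose and 24.9% fell, so calls were common across the transcriptome. The median change of the 9 genes was -0.23 (log2), against 0.0046 for all tested genes.

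KNG1 rose 7.30-fold (95% interval 4.89 to 10.9, log2 change 2.87 ± 0.28 SE, n = 2 per group, edgeR adjusted p = 3.60e-08), and 3.42% of tested genes rose more. The size rests on the 2 unequal medium libraries: the log2 change was 2.34 without medium replicate 1 and 3.55 without medium replicate 2, and the call held in both. F11 fell to 47.7% of its medium level (log2 change -1.07 ± 0.16 SE, edgeR adjusted p = 1.44e-05), and 3.57% of tested genes fell more. Kininogen and factor XI, which bind each other in plasma, changed in opposite directions. F12 rose 2.10-fold, with a log2 change of 1.07 ± 0.44 SE just past the threshold (edgeR adjusted p = 0.0471). That call was lost without medium replicate 1 (log2 change 0.54, adjusted p = 0.363), metabolites replicate 1 (0.71, 0.327), diastereomer replicate 1 (1.04, 0.0555), peptide replicate 1 (1.05, 0.0527) or peptide replicate 2 (1.04, 0.0550), and with DESeq2 (adjusted p = 0.0767). Without medium replicate 2 it was 1.80 (0.0078).

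Among the extrinsic and common pathway genes, F10 rose 1.56-fold (log2 change 0.64 ± 0.083 SE, edgeR adjusted p = 1.93e-06), while F7 fell to 79.9% (-0.32 ± 0.12 SE, 0.0325) and F2 to 85.3% (-0.23 ± 0.059 SE, 0.00253). F5 was at 71.4% of medium with an edgeR adjusted p of 0.0834 and a 95% interval of -0.96 to -0.0084 (log2). F5 passed without peptide replicate 1 (-0.51, 4.37e-05) or peptide replicate 2 (-0.52, 6.11e-05), with DESeq2 (0.0308), without the low-count filter (3.06e-09), with the replicate block (0.0345) and in the fit of the 2 groups alone (0.00307). The F7 call was lost without medium replicate 2 (-0.29, 0.117) or metabolites replicate 1 (-0.21, 0.262), with DESeq2 (0.0818), with library size alone as the scaling (0.0534) and in the fit of the 2 groups alone (0.0506).

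SERPINC1, which encodes the main inhibitor of thrombin in plasma, fell to 62.8% of medium (log2 change -0.67 ± 0.089 SE, edgeR adjusted p = 2.89e-06), and 9.66% of tested genes fell more. PROC fell to 88.6% (-0.17 ± 0.069 SE, 0.0393). The PROC call was lost without medium replicate 2 (adjusted p = 0.0512) or metabolites replicate 1 (0.139), with DESeq2 (0.0729), with library size alone (0.0954), without the low-count filter (0.102) and in the fit of the 2 groups alone (0.0808). PLG had 13 counts against 2, before scaling. The counting intervals given for PLG in the comparisons without medium cover counting error only, since PCR copies of reads are not independent molecules.

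**Figure D2:**
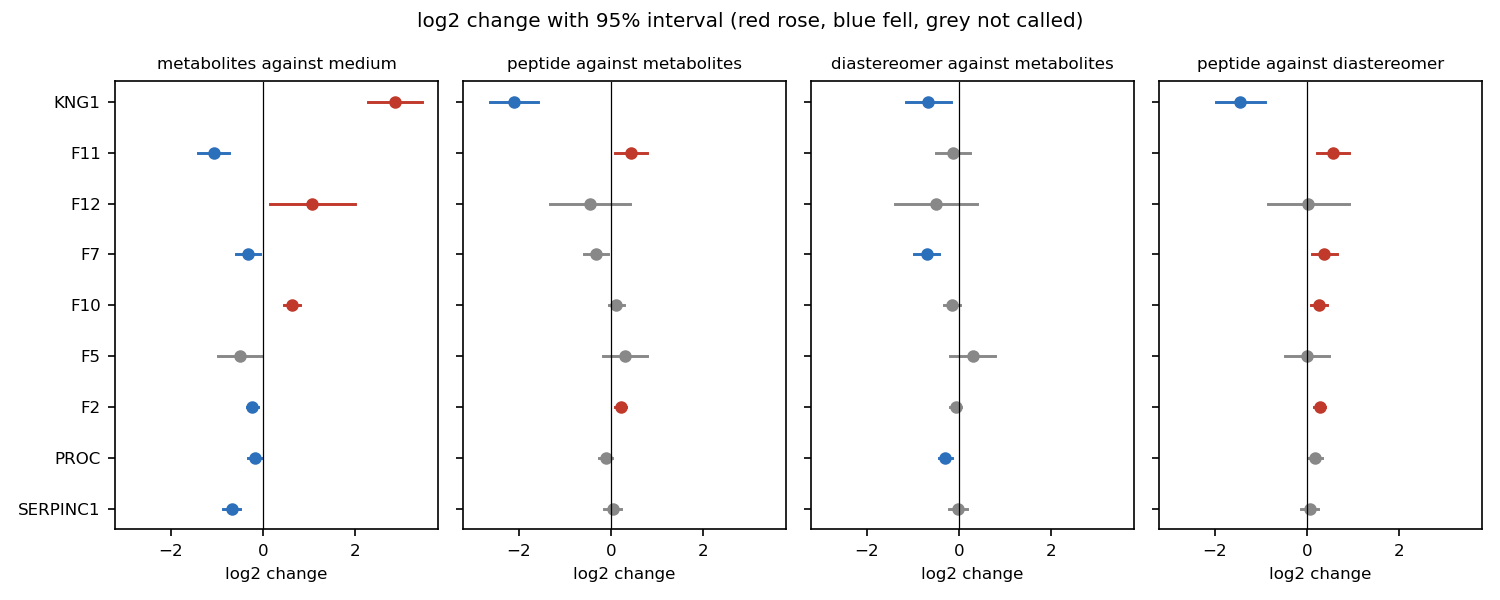
log2 change of the 9 genes other than PLG in 4 comparisons (1 panel each). The line is the 95% interval, computed from the edgeR log2 change and F statistic and not adjusted over genes. Red marks genes that rose and blue genes that fell at an adjusted p of 0.05, and grey genes that did not pass. KNG1 lies at 2.87 for metabolites against medium and at -2.10 for peptide against metabolites, while the points of F2 and PROC stay within 0.5 of 0.

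F7 and F10 are neighbours in the genome, yet they moved in opposite directions against medium. The ratio of F10 counts to F7 counts needs no scaling between libraries. It was 1.56 and 1.30 in medium, 3.02 and 2.59 in the metabolite libraries, 3.88 and 4.28 in the diastereomer libraries and 3.88 and 3.65 in the peptide libraries. All 6 libraries given metabolites stood above both medium libraries, and the peptide and diastereomer libraries stood above the metabolite libraries. The group means were 1.43 ± 0.18, 2.80 ± 0.30, 4.08 ± 0.29 and 3.76 ± 0.16 in that order (SD, n = 2). This ratio was chosen after the values were seen, and an exact permutation test of 2 against 2 libraries cannot go below p = 0.333.

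**Figure D3:**
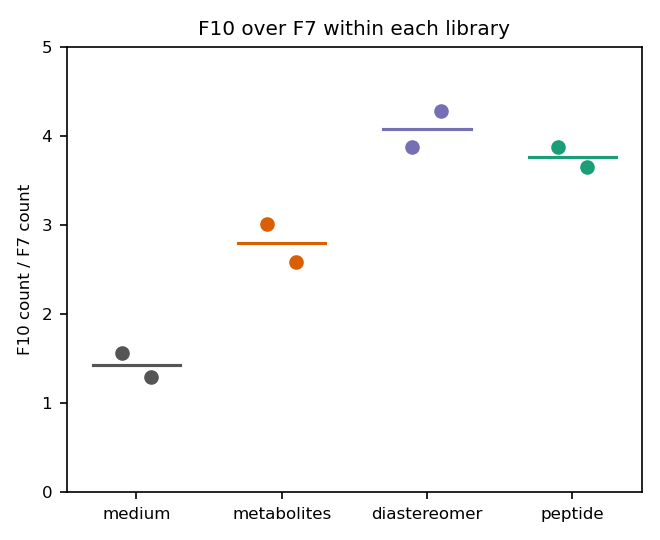
Ratio of F10 counts to F7 counts in each of the 8 libraries, with 2 points per group and a line at the group mean. Medium libraries lie at 1.56 and 1.30, and the libraries given metabolites lie between 2.59 and 4.28.

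The comparison of peptide with metabolites asked what changed in the cells when the community had met wLwKhShK in place of solvent. KNG1 fell, F2 and F11 rose, and 6 of the 9 genes other than PLG did not pass. Over all tested genes, 20.4% rose and 20.4% fell, and the median change was 0.041 (log2) for the 9 genes and -0.0024 for all.

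KNG1 fell to 23.3% of its level in the metabolite libraries (log2 change -2.10 ± 0.25 SE, n = 2 per group, edgeR adjusted p = 1.39e-06), and 2.91% of tested genes fell more. Its level in the peptide libraries was above medium, 1.70-fold (log2 change 0.77 ± 0.31 SE, edgeR adjusted p = 0.0432). That call against medium was lost in 10 of 14 alternatives, among them the fit without medium replicate 1 (0.23, 0.571), metabolites replicate 1 (0.73, 0.0757) or 2 (0.75, 0.0671), diastereomer replicate 1 (0.75, 0.0593) or 2 (0.75, 0.0605) and peptide replicate 1 (0.66, 0.173) or 2 (0.82, 0.0721). Without medium replicate 2 it was 1.44 (0.00184).

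F2 rose 1.16-fold (log2 change 0.21 ± 0.059 SE, edgeR adjusted p = 0.00639). Against medium, F2 in the peptide libraries differed by -0.018 (log2, 95% interval -0.14 to 0.10, edgeR adjusted p = 0.822). The F2 call was lost without peptide replicate 1 (0.16, 0.120). F11 rose 1.35-fold (0.44 ± 0.17 SE, 0.0402). The F11 call was lost without medium replicate 1 (0.43, 0.0509), metabolites replicate 2 (0.16, 0.497), peptide replicate 1 (0.50, 0.0738) or peptide replicate 2 (0.39, 0.148), and with DESeq2 (0.108), library size alone (0.0679) or the 2 groups alone (0.0559).

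The other genes gave intervals rather than calls. The 95% interval of the log2 difference was -0.57 to -0.052 for F7 (edgeR adjusted p = 0.0513, but 0.0398 or 0.0419 without medium replicate 1 or 2 and 0.0182 without metabolites replicate 1, and 0.0298 to 0.0499 with RLE factors, library size alone, the 2 groups alone or the replicate block), -0.042 to 0.29 for F10, -0.17 to 0.78 for F5 and -1.32 to 0.42 for F12. It was -0.25 to 0.033 for PROC and -0.15 to 0.23 for SERPINC1, and the PLG ratio of 21 to 13 counts was 1.25 (counting interval 0.595 to 2.71). F5 passed without peptide replicate 1 (0.52, 0.000601) and without the low-count filter (0.000123).

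The comparison of diastereomer with metabolites asked the same of the control peptide WlWkHsHK. F7, PROC and KNG1 fell, none of the 9 genes other than PLG rose, and 6 did not pass. Among all tested genes, 10.4% rose and 10.7% fell, or 1566 against 1606 genes; with library size alone as the scaling the split was 1196 against 1864. The median change was -0.14 (log2) for the 9 genes and 0.0015 for all.

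F7 fell to 61.9% of its level in the metabolite libraries (log2 change -0.69 ± 0.13 SE, n = 2 per group, edgeR adjusted p = 0.00071), and 8.06% of tested genes fell more. PROC, like F7 a vitamin K-dependent protease precursor, fell to 81.8% (-0.29 ± 0.070 SE, 0.00551). KNG1 fell to 63.4% (-0.66 ± 0.23 SE, 0.0480). The F7 call held in all 14 alternatives. The PROC call was lost without metabolites replicate 2 (-0.26, 0.0684) or diastereomer replicate 1 (-0.27, 0.0747), and the KNG1 call without metabolites replicate 1 (-0.68, 0.171) or 2 (-0.65, 0.191), diastereomer replicate 1 (-0.63, 0.215) or 2 (-0.68, 0.174), and with DESeq2 (0.0910).

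The remaining members had 95% intervals of -0.19 to 0.054 (log2) for F2, -0.31 to 0.025 for F10, -0.18 to 0.78 for F5, -0.49 to 0.25 for F11, -1.37 to 0.39 for F12 and -0.21 to 0.17 for SERPINC1. For PLG, with 19 counts against 13, the ratio was 1.41 (counting interval 0.662 to 3.11). F5 passed without peptide replicate 1 (0.29, 0.0202) or peptide replicate 2 (0.30, 0.0168), without the low-count filter (0.00219) and in the fit of the 2 groups alone (0.000594). This comparison and the one before it share the metabolite libraries, so a stray value there enters both.

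Setting the 2 peptides against each other compares cyclic peptides with the same residue letters that differ in letter case, both given to the community at doses not stated in the labels, with metabolites at 1 in 32 and 48 h in both arms. It is 1 pair of compounds, so p-values were adjusted over genes only. KNG1 fell, while F2, F7, F10 and F11 rose in peptide against diastereomer libraries, and 4 of the 9 genes other than PLG did not pass. Of all tested genes, 8.56% rose and 9.19% fell, and the median change was 0.18 (log2) for the 9 genes and -0.0087 for all.

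KNG1 in the peptide libraries was at 36.8% of its diastereomer level (log2 change -1.44 ± 0.26 SE, n = 2 per group, edgeR adjusted p = 0.000636), and 2.80% of tested genes fell more. This call held in all 14 alternatives. F11 was 1.47-fold higher (0.56 ± 0.17 SE, 0.0250), F7 1.30-fold (0.38 ± 0.13 SE, 0.0495), F2 1.22-fold (0.28 ± 0.059 SE, 0.00249) and F10 1.203-fold (0.27 ± 0.080 SE, 0.0249). For F11, 3.51% of tested genes rose more. F7 and F10, which went in opposite directions against medium, both rose here.

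Each of these 4 rises was lost in some of the fits with 1 library left out. The F2 call was lost without peptide replicate 1 (0.24, 0.0538). The F10 call was lost without diastereomer replicate 1 (adjusted p = 0.152) or 2 (0.0600) or peptide replicate 1 (0.161). The F11 call was lost without diastereomer replicate 1 (0.0854) or 2 (0.161) or peptide replicate 1 (0.0674) or 2 (0.0996). The F7 call was lost without diastereomer replicate 1 (0.130) or 2 (0.199) or peptide replicate 1 (0.139) or 2 (0.121), and with DESeq2 (0.111).

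For the genes that did not pass between the peptides, the 95% interval of the log2 difference is not adjusted over genes. It was 0.034 to 0.33 for PROC (edgeR adjusted p = 0.0804, and 0.0470 with the replicate block). It was -0.47 to 0.48 for F5, -0.85 to 0.92 for F12 and -0.13 to 0.25 for SERPINC1. The PLG ratio of 21 to 19 counts was 0.881 (counting interval 0.451 to 1.73). The interval for SERPINC1 is narrow, and those for F5, F12 and PLG leave room for sizeable differences in either direction.

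**Figure D4:**
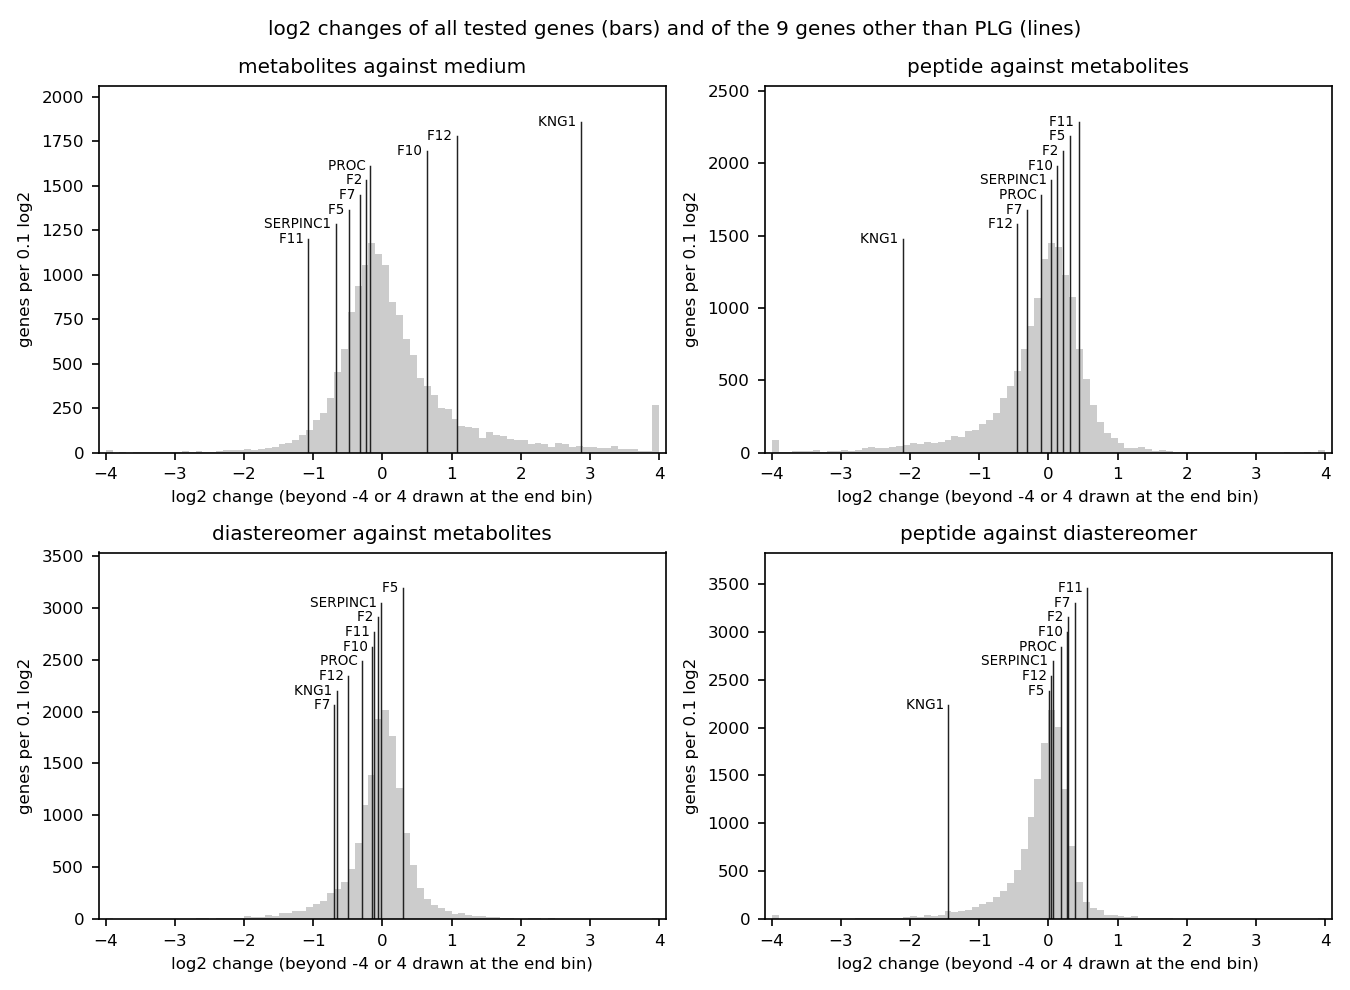
Number of tested genes per 0.1 of log2 change (bars) in 4 comparisons, with a vertical line at the change of each of the 9 genes other than PLG; line heights only separate the names. KNG1 lies in the tail in 3 of the 4 panels (2.87, -2.10 and -1.44). F11 also lies in a tail for metabolites against medium (-1.07) and for peptide against diastereomer (0.56). Most other members lie nearer the bulk of genes.

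Both peptide-community groups were also set against medium, with which the metabolite comparison shares its libraries. In peptide against medium, 2 of the 9 genes other than PLG rose (F10 and KNG1) and 4 fell (F7, F11, PROC and SERPINC1), where 28.3% of tested genes rose and 24.5% fell. In diastereomer against medium, 2 rose (KNG1 and F10) and 5 fell (F7, F11, F2, PROC and SERPINC1), where 28.2% rose and 24.5% fell.

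F10 was 1.70-fold above medium in the peptide libraries (log2 change 0.76 ± 0.082 SE, n = 2 per group, edgeR adjusted p = 1.21e-07) and 1.41-fold above it in the diastereomer libraries (0.49 ± 0.083 SE, 4.24e-05). F7 was at 64.3% (-0.64 ± 0.12 SE, 0.000175) and 49.5% (-1.02 ± 0.13 SE, 1.22e-06) of medium. F11 was at 64.6% (-0.63 ± 0.15 SE, 0.00173) and 43.9% (-1.19 ± 0.16 SE, 3.81e-06). SERPINC1 was at 64.6% and 61.9% of medium (edgeR adjusted p = 4.20e-06 and 1.75e-06), beside 62.8% in the metabolite libraries. PROC was at 82.0% and 72.4% (0.00142 and 1.09e-05), beside 88.6%.

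F7, PROC and F2 were lowest in the diastereomer group. The group means of F11 and SERPINC1 were lowest there too, but their diastereomer and metabolite libraries overlapped. The SERPINC1 differences among the groups given metabolites did not pass the test. KNG1 was 4.63-fold above medium in the diastereomer libraries (log2 change 2.21 ± 0.29 SE, edgeR adjusted p = 1.63e-06), with log2 changes of 1.67 and 2.88 without medium replicate 1 or 2. F2 was at 81.3% of medium there (-0.30 ± 0.059 SE, 0.000231). PLG had 21 and 19 counts in the peptide and diastereomer libraries against 2 in medium, before scaling.

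F5 and F12 did not pass in either comparison. The 95% interval of the log2 change against medium was -0.65 to 0.29 (peptide) and -0.66 to 0.29 (diastereomer) for F5, and -0.30 to 1.54 and -0.35 to 1.52 for F12. F5 passed in peptide against medium without peptide replicate 2 (-0.45, 0.00189) and in diastereomer against medium without peptide replicate 1 (adjusted p = 0.0290) or 2 (0.0399) or without the low-count filter (0.0358), and F12 passed in peptide against medium without medium replicate 2 (1.34, 0.0443).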

How the data were processed

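Total RNA was sequenced from HepG2 cells in 4 groups of 2 libraries. The deposited values are RSEM (1.2.31) expected counts per gene. The submitters' processing notes also name STAR (2.5.1b), fastp (0.24.0) and the build hg38, and annotation and strand setting are not given in the sources used here. Entries with numeric (649) or spike-in (97) identifiers were left out. Counts (8.06% of values not whole) were rounded, filtered by group (edgeR 4.0.16 filterByExpr, minimum count 10), scaled by TMM and fitted over all 8 libraries with the robust quasi-likelihood test (R 4.3.3, limma 3.58.1). Benjamini-Hochberg adjustment ran over 15023 genes per comparison, with a threshold of 0.05. In the text, a pair of values in brackets after a library left out is its log2 change and adjusted p, and single values are adjusted p. Alternatives were DESeq2 1.42.0, other scalings and filters, 2-group fits, a replicate block and each library left out. The 10 genes, the rule (all 10 are named) and other lists were chosen with earlier results of these data known. Other coagulation genes, cell type markers and sequences were not analysed here, because no human gene names or sequences were at hand. The reporter assays of the series were not analysed either, since the report covers only the RNA-seq gene counts.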

Additional observations from a re-analysis of the deposited data

How the results depend on the processing

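Of 32 calls of the 9 genes other than PLG over the 6 comparisons, 20 held in all 14 alternatives, 12 were lost in at least 1, and all 32 kept their sign. These calls are not separate results, since the comparisons share libraries and the alternatives refit the same libraries. The matching share over all tested genes was not counted. The counts of genes called that follow include PLG, whose calls against medium rest on the low-count filter. With 1 library left out, the number of genes called was 5 to 8 for metabolites against medium (9 with all libraries), 1 to 4 for diastereomer against metabolites (3) and 1 to 5 for peptide against diastereomer (5). The lone library of a group was then assumed to vary like the other groups. Over all genes, 3172 calls for diastereomer against metabolites became 1763 to 1907 without a metabolite or diastereomer library, and 2666 for peptide against diastereomer became 1143 or 1304 without diastereomer replicate 1 or 2 and 1037 without peptide replicate 1. Changes of sign touched only differences that had not passed: F5 in peptide against diastereomer became -0.0093 (log2) with the replicate block, and F2 in peptide against medium 0.0080 without the low-count filter. With a library left out, the log2 change ranged from -0.35 to 0.71 for PLG and -0.051 to 0.15 for SERPINC1 (peptide against metabolites), -0.41 to 0.24 for F11 and -0.13 to 0.086 for SERPINC1 (diastereomer against metabolites), -0.23 to 0.24 for F5, -0.32 to 0.58 for F12 and -0.83 to 0.20 for PLG (peptide against diastereomer), and -0.45 to 0.011 for F5 and -0.10 to 0.016 for F2 (peptide against medium). The causes were not tested. With the replicate block the counts of genes called, PLG included, were 9, 4, 3, 6, 7 and 8 in the order of the report. Calls over all tested genes were then 8196, 6576, 3706, 3404, 8244 and 8227. Without the block they were 7869, 6125, 3172, 2666, 7929 and 7915. Over all genes, same-numbered libraries deviated together little (r of deviations -0.034 to 0.069). The labels do not say whether the numbers pair the samples, and these values cannot decide it. PLG could not be fitted in the fits of 2 groups alone, except peptide against diastereomer, because it was filtered out. Depth limits PLG most, then F12 and KNG1 in medium.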

Other observations

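Over the 8 libraries, which fall in 4 groups, the log2 levels of the 10 genes followed one another to differing degrees. These correlations are descriptions only, since the libraries share groups and depth. F7 and PROC were most alike (Pearson r = 0.976), and SERPINC1 and F11 also ran together (r = 0.891). F11 and KNG1 ran opposite (r = -0.865), as did F10 and SERPINC1 (r = -0.855) and F2 and KNG1 (r = -0.841). F7 and F10 did so to a lesser degree (r = -0.576). Outside the 10 genes, the entry nearest to KNG1 was ENSG00000167074 (r = 0.993), 1 of 622 genes above 0.9, and the entry nearest to F11 was ENSG00000204301 (r = 0.984), 1 of 358. The correlations of PLG are not given, since its counts were few and it passed the filter only through groups where it was higher.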
